A study of Homo sapiens with 4 samples.

Results

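Claudins and tight junction genes were described in spheroids of 4 human colon cell lines, as 10 genes out of the 58740 in the deposited gene table. They were taken by symbol: the claudins CLDN1, CLDN2, CLDN3, CLDN4, CLDN7, CLDN11 and CLDN12, the membrane protein occludin (OCLN), and the scaffolds ZO-1 (TJP1) and ZO-3 (TJP3). The lines were HCT116 and DLD-1, which come from colorectal carcinomas, SW620, which was taken from a carcinoma's lymph node metastasis, and HCEC-1CT, a non-cancerous colon line made immortal with CDK4 and TERT. Every line is labelled wild type and as an epithelial cell, and was grown for 7 days in low-attachment plates of 24 wells with 10% fetal bovine serum. Each line gave 1 RNA-seq library, from the RNA of spheroids picked from 2 plates, so no spread between replicates, no test and no p-value can be had, and the 3 cancer lines are not replicates of each other.

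Tight junctions close the space between neighbouring epithelial cells and limit what passes between them. Claudins form the strands of the junction, and the mix of claudins in a cell sets whether a strand seals or lets small ions through. Occludin and its relatives run in the same strands, and the ZO scaffolds tie the strands to the actin cortex inside the cell. In the colon, CLDN3, CLDN4 and CLDN7 are known as claudins of the differentiated epithelium, while CLDN2 forms a pore for cations and water.

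Values are FPKM, fragments per kilobase of transcript scaled to the size of the library, which may be set side by side between genes. Folds and log2 ratios are of FPKM plus 1, which understates the change of low genes, and a gene was called at 4-fold or more. A gene listed at 0 in one library was counted when the ratio passed that limit, but no fold is given for it. Low values put the depth at about 25300000 fragments in HCT116, 23300000 in DLD-1, 28700000 in SW620 and 29500000 in HCEC-1CT. At 1 FPKM a transcript of 2 kb then stands for 50.6, 46.7, 57.5 and 59.0 fragments in that order, a count that covers counting error only.

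The HCEC-1CT library went against its epithelial label. Of 8 epithelial markers, 5 were listed at 0 there (EPCAM, CDH1, KRT19, KRT20 and ESRP1), and the 8 summed to 1668 FPKM in HCT116, 5305 FPKM in DLD-1 and 6806 FPKM in SW620, against 7.16 FPKM in HCEC-1CT. All 12 fibroblast and mesenchymal markers reached 1 FPKM in HCEC-1CT, against 3 for HCT116, 1 for DLD-1 and 4 for SW620, and they summed to 17.3, 2.73 and 257 FPKM in HCT116, DLD-1 and SW620, against 1698 FPKM in HCEC-1CT. In SW620 most of that sum was vimentin. The part these markers have in the comparisons with HCEC-1CT was not tested. The comparisons among the 3 cancer lines do not use that library.

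Of the 10 genes, 5 stood 4-fold or more above HCEC-1CT in all 3 cancer lines: CLDN3, CLDN4, CLDN7, OCLN and TJP3. With a pseudocount of 5 in place of 1, only 1 of them, TJP3, stood above in all 3, and 3 genes in place of 7 stood above in SW620. No gene of the 10 stood 4-fold below in all 3. Over the 18637 genes that reached 1 FPKM in any library, 2.68% were above and 2.99% below in all 3 lines. In HCT116, 5 genes were above HCEC-1CT and 1 below (background 9.04% and 5.01%), in DLD-1 5 and 1 (9.24% and 5.57%), and SW620 had 7 and 0 (8.93% and 5.49%). The 3 comparisons share the HCEC-1CT library, so they are not independent of one another. In RNA from whole spheroids, fewer cells with a transcript and less of it per cell cannot be told apart. CLDN12 and TJP1 were called in none of the lines, as were 74.4% of all genes tested. CLDN2 did not reach 1 FPKM in any library and so could not be called, which left 9 of the 10 genes open to a call. The median log2 ratio of the 10 genes was 1.67 for HCT116, 2.12 for DLD-1 and 2.77 for SW620, beside 0.27, 0.33 and 0.21 over all genes tested.

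**Figure D1:**
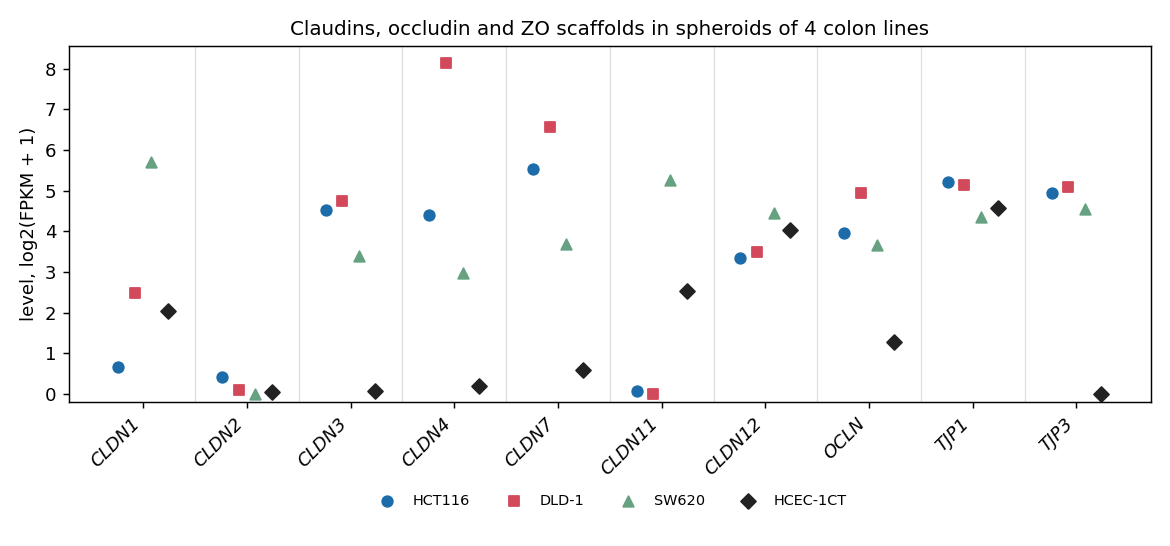
Level of each of the 10 genes as log2(FPKM + 1), with 1 point per line (circles HCT116, squares DLD-1, triangles SW620, diamonds HCEC-1CT). CLDN3, CLDN4, CLDN7, OCLN and TJP3 have the HCEC-1CT point well under the other 3, CLDN4 is highest in DLD-1, CLDN1 and CLDN11 are highest in SW620, and CLDN2 is near 0 in every line.

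The promoters of the 5 genes that stood above HCEC-1CT together are shown because repressors of epithelial genes, the Snail and ZEB factors, are known to bind the E-box CAGGTG. Each sequence is RefSeq's for GRCh38.p14, covers 250 bases before to 50 after an annotated start, and is written 5′ to 3′ along the gene, with each E-box (CAGGTG, or CACCTG on the other strand) in capitals.
CLDN3, chr7:73770221-73770520, minus strand: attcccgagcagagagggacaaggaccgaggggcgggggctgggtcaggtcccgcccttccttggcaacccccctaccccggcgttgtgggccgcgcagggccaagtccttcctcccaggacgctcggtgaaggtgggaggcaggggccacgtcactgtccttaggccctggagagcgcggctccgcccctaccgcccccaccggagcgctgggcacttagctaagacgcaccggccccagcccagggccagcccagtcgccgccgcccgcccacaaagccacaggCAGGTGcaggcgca
CLDN4, chr7:73830746-73831045, plus strand: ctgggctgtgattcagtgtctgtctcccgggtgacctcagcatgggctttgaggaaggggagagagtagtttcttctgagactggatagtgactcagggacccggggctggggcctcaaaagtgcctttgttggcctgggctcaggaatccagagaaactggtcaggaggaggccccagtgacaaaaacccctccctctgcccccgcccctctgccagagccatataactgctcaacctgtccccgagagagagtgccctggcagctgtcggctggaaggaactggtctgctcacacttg
CLDN7, chr17:7262429-7262728, minus strand: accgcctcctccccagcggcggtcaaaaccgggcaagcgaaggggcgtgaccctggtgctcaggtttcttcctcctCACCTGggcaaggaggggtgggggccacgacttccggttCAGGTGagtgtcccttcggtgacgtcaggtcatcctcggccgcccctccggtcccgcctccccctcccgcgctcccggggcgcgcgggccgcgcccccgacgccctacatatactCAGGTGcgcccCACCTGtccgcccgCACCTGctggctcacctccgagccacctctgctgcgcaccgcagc
OCLN, chr5:69492540-69492839, plus strand: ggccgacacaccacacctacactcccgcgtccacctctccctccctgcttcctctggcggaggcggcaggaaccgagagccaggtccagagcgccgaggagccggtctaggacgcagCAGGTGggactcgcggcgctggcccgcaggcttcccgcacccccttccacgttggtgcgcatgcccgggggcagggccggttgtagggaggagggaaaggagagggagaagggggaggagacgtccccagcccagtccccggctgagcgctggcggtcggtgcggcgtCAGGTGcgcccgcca
TJP3, chr19:3721487-3721786, plus strand: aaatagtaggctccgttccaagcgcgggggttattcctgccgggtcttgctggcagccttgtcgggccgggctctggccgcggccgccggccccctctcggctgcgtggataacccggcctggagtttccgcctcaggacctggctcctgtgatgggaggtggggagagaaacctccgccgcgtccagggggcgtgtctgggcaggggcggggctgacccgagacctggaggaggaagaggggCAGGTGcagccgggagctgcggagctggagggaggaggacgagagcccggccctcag

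The CLDN7 window shown held 5 E-boxes, the OCLN window 2, the CLDN3 and TJP3 windows 1 each, and the CLDN4 window 0. Of the windows not shown, the other of OCLN held 1, the other of TJP3 held 0 and the other of CLDN7, at the start of the transcript CLDN7-202, held 0. CLDN7-202 is the CLDN7 transcript with the most FPKM over all libraries together. The OCLN window shown lies at the start of OCLN-202. The start of OCLN-201, which has the most FPKM for that gene, is 498 bases away. All 10 genes had at least 1 window in the table, 18 in all. E-boxes lay in 6 of the 18, against 20.6% of all 35116 windows, and 3 or more lay in 1 of the 18, against 0.635%. The 6 include a window of TJP1 with 1 E-box, a gene that was called in none of the lines. The windows of OCLN overlap each other. The GC box GGGCGG, or CCGCCC on the other strand, was in 12 of the 18 windows and in 45% of all. The grainyhead motif AACNNGTT, which reads the same on both strands, was in 0 of the 18 and in 3.52% of all, and the TATA box TATAAA, or TTTATA on the other strand, in 0 of the 18 and in 11.5% of all. These are matches of letters and not measured binding.

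CLDN4, a receptor of the Clostridium perfringens enterotoxin (ENSG00000189143, chromosome 7, 73799542 to 73832693 in hg38, plus strand), was the most uneven of the epithelial claudins. It stood at 20.3 FPKM in HCT116, 284 FPKM in DLD-1 and 6.93 FPKM in SW620, against 0.146 FPKM in HCEC-1CT. Its level in DLD-1 was above that of 99.5% of nuclear protein-coding genes, and its ratio to HCEC-1CT there was 248-fold. The ratios of HCT116 and SW620 to HCEC-1CT were 18.6-fold and 6.92-fold. Over coding transcripts only, the log2 ratio of HCT116 to HCEC-1CT was 3.31 in place of 4.22, and that of HCT116 to DLD-1 was -4.69 in place of -3.74. The HCEC-1CT value stands for very few fragments, about 5.9, against 11998.7 in DLD-1. The size of the folds over HCEC-1CT therefore depends on the pseudocount. For DLD-1 the log2 ratio was 7.96 with a pseudocount of 1, 10.17 with 0.1 and 5.81 with 5.

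CLDN3, the other enterotoxin receptor, lies close to CLDN4 on chromosome 7 (ENSG00000165215, 73767725 to 73770691, minus strand). It had 22 FPKM in HCT116, 25.7 FPKM in DLD-1 and 9.48 FPKM in SW620, against 0.0630 FPKM in HCEC-1CT, with ratios of 21.6-fold, 25.1-fold and 9.86-fold. Its order over the lines was the same as that of CLDN4, but it differed by only 1.16-fold between DLD-1 and HCT116, where CLDN4 differed by 13.3-fold. Within a line the CLDN4 level was 0.926 times the CLDN3 level in HCT116, 11 times in DLD-1 and 0.731 times in SW620. The annotated transcript CLDN3-201 was listed at 0 in HCEC-1CT, where the whole value lay on a longer transcript of the authors' table that GENCODE 29 does not hold.

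CLDN7, which binds the adhesion molecule EPCAM (ENSG00000181885, chromosome 17, 7259903 to 7263983, minus strand), had 45.6 FPKM in HCT116, 94.6 FPKM in DLD-1 and 11.9 FPKM in SW620, against 0.517 FPKM in HCEC-1CT. The ratios were 30.7-fold in HCT116, 63.0-fold in DLD-1 and 8.49-fold in SW620. It was the highest claudin in HCT116 and the second highest in DLD-1. EPCAM itself had 144 FPKM in HCT116, 406 FPKM in DLD-1 and 237 FPKM in SW620 and was listed at 0 in HCEC-1CT, so the line with the least CLDN7 of the 3 cancer lines was not the one with the least EPCAM.

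OCLN, occludin (ENSG00000197822, chromosome 5, 69492292 to 69558104, plus strand), had 14.6 FPKM in HCT116, 29.8 FPKM in DLD-1 and 11.6 FPKM in SW620, against 1.43 FPKM in HCEC-1CT. The ratios were 6.42-fold, 12.7-fold and 5.17-fold, smaller in each line than those of CLDN3, CLDN4 and CLDN7. HCT116 and SW620 were within 1.24-fold of each other. A copy of part of this gene, the pseudogene OCLNP1, is known on the same chromosome. No value is listed under that symbol in these data, and fragments shared with the copy cannot be told apart here.

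TJP3, which codes for the scaffold ZO-3 of epithelial junctions (ENSG00000105289, chromosome 19, 3708109 to 3750813, plus strand), was listed at 0 in HCEC-1CT for the gene and for each of its 9 transcripts. It stood at 29.9 FPKM in HCT116, 33.3 FPKM in DLD-1 and 22.4 FPKM in SW620, the narrowest range of the 5 genes over the cancer lines. The transcript TJP3-207 held 90.2%, 86.1% and 96.2% of the gene in HCT116, DLD-1 and SW620. None of 12 housekeeping genes was listed at 0 in any library, while HCEC-1CT lists 0 for 30 of the 4496 genes that have 10 FPKM or more in each of the cancer lines.

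TJP1, for ZO-1, the scaffold that endothelia and many other cells share (ENSG00000104067, chromosome 15, 29699367 to 29968865, minus strand), differed little. It had 36.2 FPKM in HCT116, 34.4 FPKM in DLD-1 and 19.4 FPKM in SW620, against 22.7 FPKM in HCEC-1CT, with log2 ratios of 0.65, 0.58 and -0.21. TJP3 stood at 0.826, 0.966 and 1.15 times the TJP1 level in HCT116, DLD-1 and SW620. An exon of 240 bases (chromosome 15, 29719777 to 29720016), known as the alpha domain, is skipped in some TJP1 transcripts. Transcripts with it held 8.89% of the FPKM of those that include or skip it for HCT116, 10.9% for DLD-1 and 21.8% for SW620, against 13.5% in HCEC-1CT. These shares rest on how the authors' program divided reads between transcripts.

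CLDN1, a sealing claudin (ENSG00000163347, chromosome 3, 190305701 to 190322475, minus strand), was high only in SW620 among the 4 libraries. It had 0.581 FPKM in HCT116, 4.57 FPKM in DLD-1 and 50.9 FPKM in SW620, against 3.13 FPKM in HCEC-1CT. SW620 stood 12.6-fold above HCEC-1CT, 32.8-fold above HCT116 and 9.32-fold above DLD-1. DLD-1 and HCEC-1CT were within 1.35-fold of each other. The log2 ratio of HCT116 to HCEC-1CT was -1.38, short of the 4-fold limit, but it was -2.25 with a pseudocount of 0.1 and -2.08 on the TPM scale, past that limit.

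CLDN11, the claudin of myelin and of the testis barrier (ENSG00000013297, chromosome 3, 170418865 to 170454733, plus strand), went in opposite directions in the cancer lines. It had 0.0512 FPKM in HCT116, was listed at 0 in DLD-1 and had 37.7 FPKM in SW620, against 4.76 FPKM in HCEC-1CT. SW620 was 6.72-fold above HCEC-1CT and 36.8-fold above HCT116, and HCEC-1CT was in turn well above HCT116, with a log2 ratio of HCT116 to HCEC-1CT of -2.45. Neither HCT116 nor DLD-1 passed the limit with a pseudocount of 5, where their log2 ratios were -0.95 and -0.96, or where 5 FPKM was asked of the higher library. The HCT116 value stands for about 2.3 fragments and the SW620 value for 2227. The coding transcript CLDN11-201 held 86.5% of the gene in SW620 and 80.9% in HCEC-1CT. Among glial markers, SOX10 and S100B were under 0.1 FPKM in all 4 libraries, GFAP was at most 0.246 FPKM, and MBP had 13.2 FPKM in HCT116, 14.8 FPKM in DLD-1 and 8.21 FPKM in SW620, against 0.400 FPKM in HCEC-1CT.

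CLDN12 (ENSG00000157224, chromosome 7, 90383721 to 90513402, plus strand) is an unusual claudin. It lacks the motif at the end of the tail by which others bind ZO scaffolds. It had 9.22 FPKM in HCT116, 10.2 FPKM in DLD-1 and 21.0 FPKM in SW620, against 15.4 FPKM in HCEC-1CT. No line lay 4-fold from another. It shares 201 exonic bases with CDK14 on the same strand. CDK14 had 3.76 FPKM in HCT116, was listed at 0 in DLD-1 and had 0.0788 FPKM in SW620, against 26.4 FPKM in HCEC-1CT. CLDN12 also shares 347 exonic bases with GTPBP10 on that strand, at 3.94, 3.41 and 3.52 FPKM in HCT116, DLD-1 and SW620, against 2.78 FPKM in HCEC-1CT. A further 371 are shared with AC006153.1 and 276 with AC002456.2, each at most 0.0207 FPKM. Coding transcripts held 93.7%, 85.5% and 85.4% of the CLDN12 value in HCT116, DLD-1 and SW620, against 71.0% in HCEC-1CT.

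CLDN2, the pore-forming claudin (ENSG00000165376, chromosome X, 106900164 to 106930861, plus strand), did not reach 1 FPKM in any library. It had 0.334 FPKM in HCT116 and 0.0748 in DLD-1, was listed at 0 in SW620, and had 0.0363 FPKM in HCEC-1CT. These values stand for about 24.8, 5.5 and 3.4 fragments in HCT116, DLD-1 and HCEC-1CT, and no order of the lines is read from so few.

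Between pairs of cancer lines, every gene of the 10 that passed the 4-fold limit was a claudin, as most of the 10 are. HCT116 stood 4-fold above DLD-1 for 0 of the 10 genes and below it for 1, CLDN4, where the background is 4.94% above and 4.52% below. HCT116 stood above SW620 for 0 genes and below it for 2, CLDN1 and CLDN11, where the background is 3.39% and 3.76%. DLD-1 stood above SW620 for 2 genes, CLDN4 at 35.9-fold and CLDN7 at 7.42-fold, and below it for 2, CLDN1 and CLDN11, where the background is 4.25% and 4.72%. OCLN, TJP1 and TJP3 were within 4-fold in each of the 3 pairs, with the widest gap 2.45-fold, for OCLN in DLD-1 over SW620.

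Measured against the whole family of 24 claudins in the table, each line had its own leading claudin. The claudins summed to 108 FPKM in HCT116, 424 FPKM in DLD-1 and 144 FPKM in SW620, against 33.9 FPKM in HCEC-1CT. In HCT116 CLDN7 held 42.3% of that sum, CLDN3 20.3% and CLDN4 18.8%. In DLD-1 CLDN4 held 66.8% and CLDN7 22.3%. In SW620 CLDN1 held 35.4%, CLDN11 26.2% and CLDN12 14.6%, while CLDN3, CLDN4 and CLDN7 held 6.59%, 4.82% and 8.26%. In HCEC-1CT CLDN12 led with 45.5%, followed by CLDN14 with 14.8% and CLDN11 with 14.0%.

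**Figure D2:**
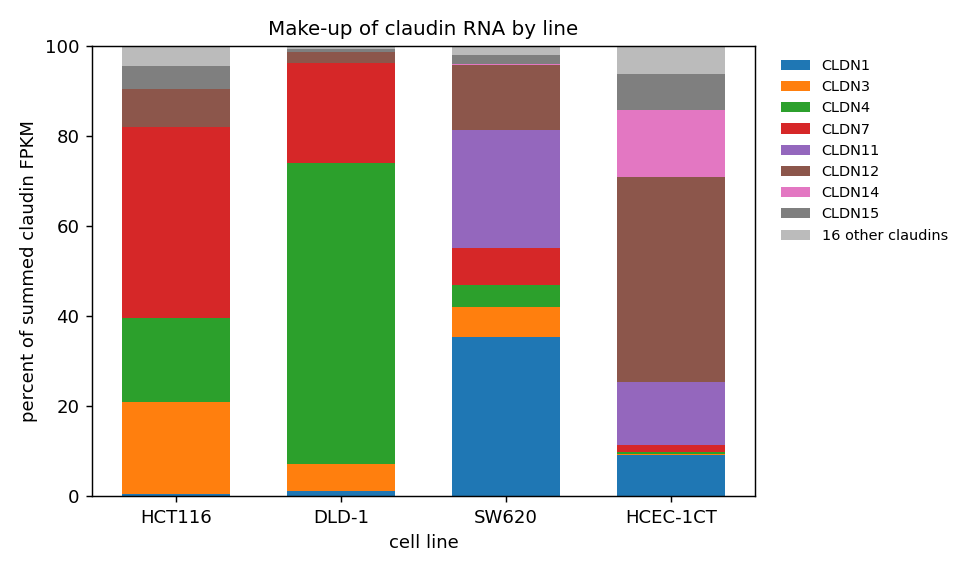
Share of the summed FPKM of 24 claudins held by each leading claudin, in percent, with 1 stacked bar per line and the remaining claudins in light grey. CLDN7 is the largest block in HCT116 (42.3%), CLDN4 in DLD-1 (66.8%), CLDN1 in SW620 (35.4%) and CLDN12 in HCEC-1CT (45.5%).

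The 7 claudins described above held 90.9%, 98.6% and 95.9% of the claudin sum in HCT116, DLD-1 and SW620, against 71.0% in HCEC-1CT. Of the other 17 claudins only 3 reached 1 FPKM in any library. CLDN14, known from the inner ear and kidney, was listed at 0 in HCT116 and DLD-1 and had 0.0331 FPKM in SW620, against 5.02 FPKM in HCEC-1CT. CLDN15, a cation pore of the small intestine, had 5.42 FPKM in HCT116, 2.49 FPKM in DLD-1 and 2.97 FPKM in SW620, against 2.72 FPKM in HCEC-1CT. CLDN23, a claudin of the colon surface, had 2.97, 1.65 and 1.15 FPKM in HCT116, DLD-1 and SW620, against 1.35 FPKM in HCEC-1CT. CLDN5, the claudin of endothelia, reached at most 0.566 FPKM, in HCEC-1CT.

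The transcripts behind CLDN4 and CLDN7 differed between lines. For CLDN4, the transcript CLDN4-201, which starts at 73830863, held 98.5% of the gene in DLD-1 and 69.7% in SW620. In HCT116 it held 22.8%, and 50.3% lay on CLDN4-204, a transcript with no coding annotation that ends at 73829366, short of CLDN4-201. These are shares of FPKM, which gives short transcripts more weight. CLDN4-204 has 593 bases and stands for about 153.6 of the gene's 914.5 fragments in HCT116, against 215.0 for CLDN4-201. The coding CLDN4-202 and CLDN4-203, which start at 73828174 and 73827744, held 15.2% and 10.3% of the FPKM in HCT116. By estimated fragments CLDN4-202 led there, with about 322.1, and CLDN4-203 had about 219.8. In DLD-1 they stood for about 0.2 and 7.0 fragments. Counted over coding transcripts, CLDN4 had 9.83 FPKM in HCT116, 279 FPKM in DLD-1 and 4.83 FPKM in SW620, against 0.0901 FPKM in HCEC-1CT. CLDN4 in HCT116 was thus 10.6% rather than 18.8% of the claudin sum when non-coding transcripts were left out of every claudin.

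**Figure D3:**
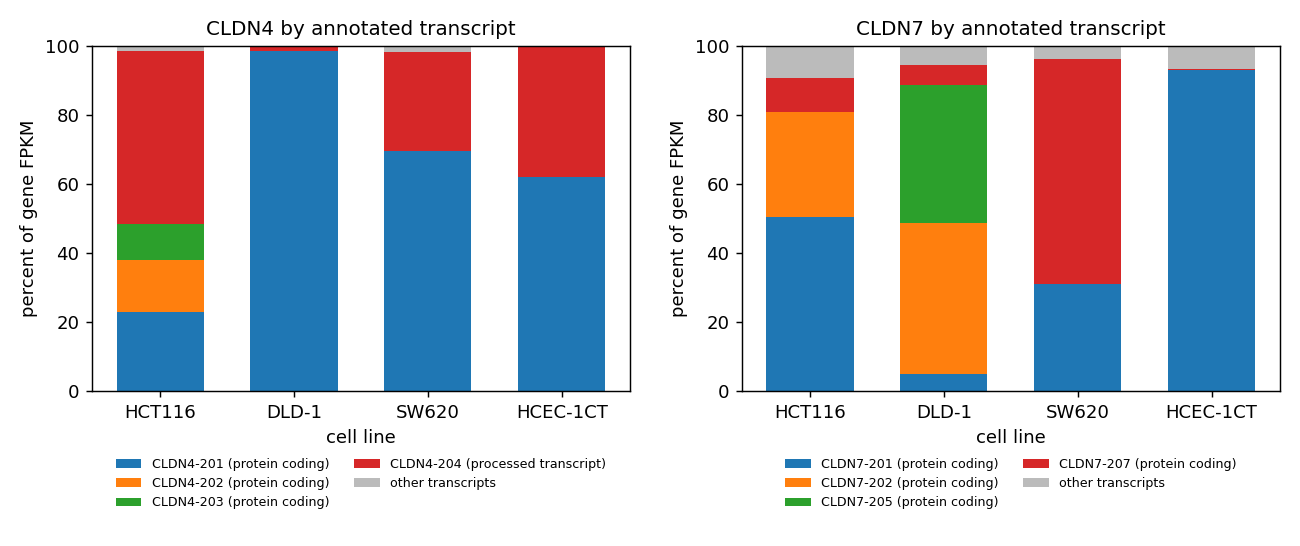
Share of the gene's FPKM on each annotated transcript that reaches 10% in any line, in percent, for CLDN4 (left) and CLDN7 (right), with 1 stacked bar per line. CLDN4-201 fills 98.5% of the DLD-1 bar and CLDN4-204 50.3% of the HCT116 bar, and each line has another split of CLDN7. The HCEC-1CT bars rest on only 0.146 FPKM of CLDN4 and 0.517 FPKM of CLDN7.

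CLDN7-201 starts at 7262478, right at the window with 5 E-boxes printed above. It held 50.5% of CLDN7 for HCT116, 4.95% for DLD-1 and 31.1% for SW620, against 93.0% in HCEC-1CT. The HCEC-1CT share rests on only about 23.8 fragments for the whole gene, at 0.517 FPKM. CLDN7-202, which starts at 7263213, held 30.5% for HCT116, 43.9% for DLD-1 and 0.0303% for SW620 and was listed at 0 in HCEC-1CT. CLDN7-205, which starts at 7263983, held 39.8% in DLD-1 and was listed at 0 in the other 3 libraries. In SW620 the short CLDN7-207 of 485 bases led with 65% of the FPKM. By estimated fragments it did not lead, at about 107.5 against 163.6 for CLDN7-201. Part of this gene, 269 exonic bases, is shared with AC003688.1 on the same strand, which was listed at 0 throughout, and 38 bases with ELP5 on the opposite strand, so the division between transcripts is less certain than the gene's sum.

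OCLN was divided between OCLN-201 and OCLN-202, which held 45.1% and 53.9% in HCT116, 60.4% and 37.9% in DLD-1 and 57.0% and 43.0% in SW620, against 45.7% and 54.3% in HCEC-1CT. TJP1-212 led TJP1 with 70.8%, 62.3% and 57.9% in HCT116, DLD-1 and SW620, against 64.6% in HCEC-1CT. CLDN1-201 held at least 89.9% of CLDN1 in each library. CLDN12-203 led CLDN12 with 62.8%, 62.3% and 62.6% in HCT116, DLD-1 and SW620, against 37.7% in HCEC-1CT.

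A list of 45 other genes of the tight junction, its polarity proteins and its partners was set beside the 10. In all 3 cancer lines 11 of the 45 stood 4-fold or more above HCEC-1CT and 3 stood below, where the background is 2.68% and 2.99%. In HCT116 13 were above and 6 below (background 9.04% and 5.01%), in DLD-1 15 and 5 (9.24% and 5.57%), and SW620 had 14 and 7 (8.93% and 5.49%). The median log2 ratio of the list was 0.78 for HCT116, 0.73 for DLD-1 and 0.62 for SW620, beside 0.27, 0.33 and 0.21 over all genes tested. Of the 45 genes, 44 reached 1 FPKM in at least 1 library.

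Of the 5 occludin relatives and proteins of tricellular contacts, 3 were above in all 3 lines and 0 below (background 2.68% and 2.99%). LSR, which draws tricellulin to corners where 3 cells meet, had 151 FPKM in HCT116, 36.0 FPKM in DLD-1 and 33.9 FPKM in SW620, against 0.225 FPKM in HCEC-1CT. MARVELD2, tricellulin itself, had 9.15, 11.9 and 11.5 FPKM in HCT116, DLD-1 and SW620, against 0.477 FPKM in HCEC-1CT. MARVELD3, another relative of occludin, had 5.31, 13.1 and 10.8 FPKM, against 0.0283 FPKM in HCEC-1CT. ILDR1, a relative of LSR, stood 4-fold above only in DLD-1, at 1.01 FPKM in HCT116, 4.84 FPKM in DLD-1 and 0.157 FPKM in SW620, against 0.0355 FPKM in HCEC-1CT.

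Of the 6 junctional adhesion molecules, 1 was above and 1 below in all 3 lines (background 2.68% and 2.99%). CXADR, the receptor of coxsackieviruses and adenoviruses, had 22.2 FPKM in HCT116, 35.5 FPKM in DLD-1 and 14.6 FPKM in SW620, against 0.0214 FPKM in HCEC-1CT. JAM3, found on endothelia and fibroblasts, had 0.0156 FPKM in HCT116 and 0.0219 in DLD-1 and was listed at 0 in SW620, against 8.80 FPKM in HCEC-1CT. F11R, the epithelial JAM-A, had 10.9, 43.9 and 57.3 FPKM in HCT116, DLD-1 and SW620, against 3.87 FPKM in HCEC-1CT, and HCT116 did not reach 4-fold. JAM2 was at most 0.0589 FPKM in the cancer lines, against 2.90 FPKM in HCEC-1CT, just short of the limit.

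Scaffolds split in both directions, with 2 of 10 above and 2 below in all 3 lines (background 2.68% and 2.99%). The paralogous scaffolds PATJ and MPDZ were opposite to each other. PATJ had 29.6 FPKM in HCT116, 35.6 FPKM in DLD-1 and 23.8 FPKM in SW620, against 3.03 FPKM in HCEC-1CT. MPDZ was listed at 0 in all 3 cancer lines, against 9.13 FPKM in HCEC-1CT. CGN, cingulin, had 15.9, 13.9 and 12.8 FPKM in HCT116, DLD-1 and SW620 and was listed at 0 in HCEC-1CT, while MAGI2 was at most 0.0858 FPKM in the cancer lines, against 6.68 FPKM in HCEC-1CT. AFDN, afadin, had 19.9, 57.5 and 23.5 FPKM in HCT116, DLD-1 and SW620, against 33.1 FPKM in HCEC-1CT, and did not pass the limit in any line. Neither did MAGI3, at 20.6, 34 and 20.4 FPKM, against 12.9 FPKM in HCEC-1CT.

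**Figure D4:**
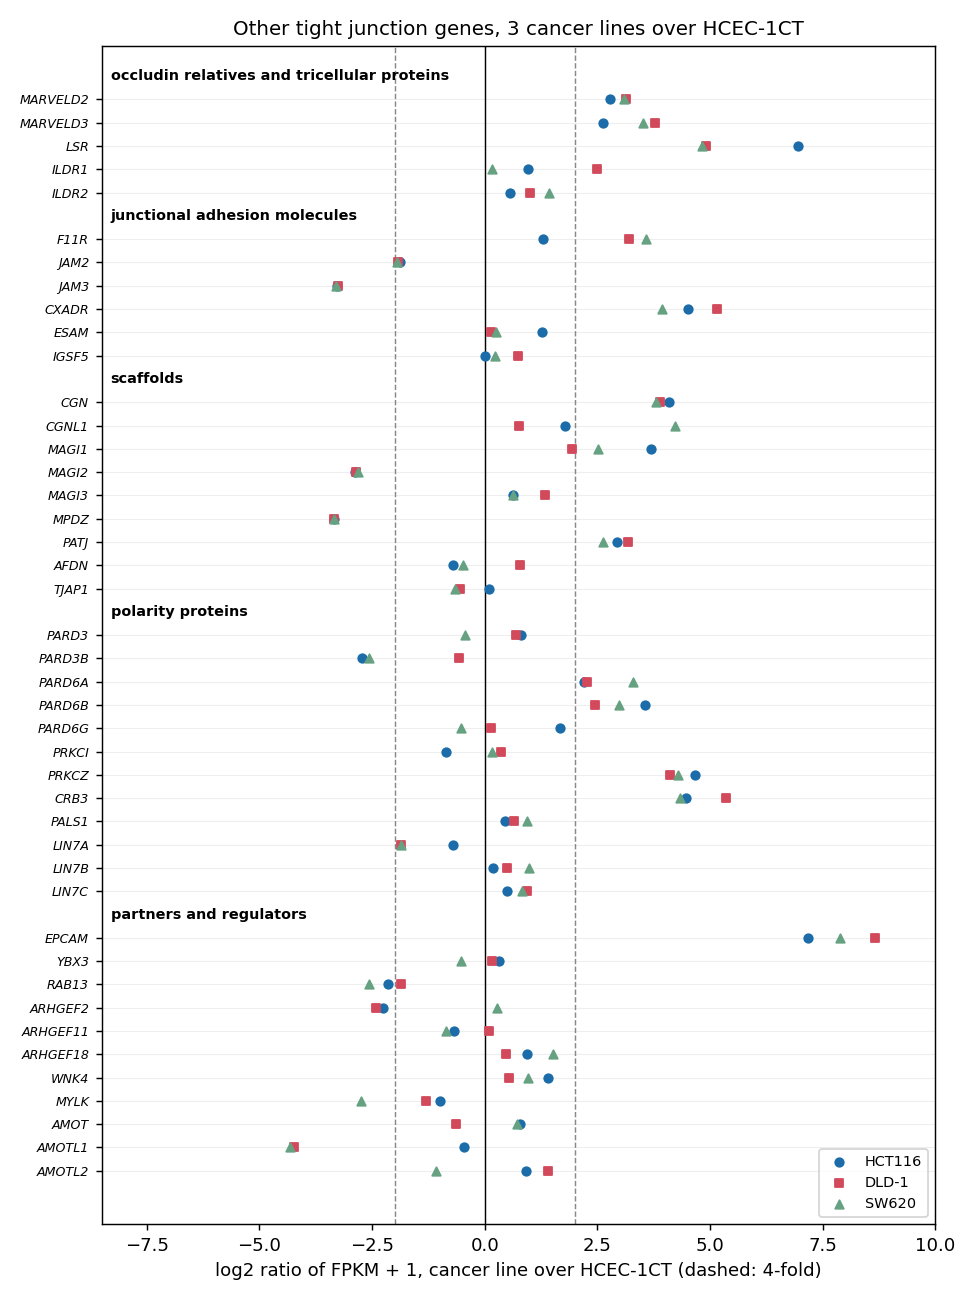
Log2 ratio of FPKM + 1 of each cancer line over HCEC-1CT for other tight junction genes of the list, grouped by role, with dashed lines at 4-fold (circles HCT116, squares DLD-1, triangles SW620). The 11 genes with all 3 points right of the upper dashed line include LSR, CXADR, CGN and EPCAM, and the 3 with all points left of the lower one are JAM3, MAGI2 and MPDZ.

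Of the 12 polarity genes, 4 were above in all 3 lines and 0 below (background 2.68% and 2.99%). CRB3, which marks the apical side, had 20.9 FPKM in HCT116, 40.0 FPKM in DLD-1 and 19.2 FPKM in SW620 and was listed at 0 in HCEC-1CT. PRKCZ, an atypical protein kinase C, had 26.2, 17.5 and 19.9 FPKM in HCT116, DLD-1 and SW620, against 0.0706 FPKM in HCEC-1CT. Its partners PARD6B and PARD6A had 30.6 and 4.71 FPKM in HCT116, 13.6 and 4.98 in DLD-1, and 20.0 and 11 in SW620, against 1.67 and 0.231 FPKM in HCEC-1CT. LIN7C was within 4-fold in all 3 lines, at 25.5, 35.1 and 32.4 FPKM in HCT116, DLD-1 and SW620, against 17.9 FPKM in HCEC-1CT.

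Of the 12 partners and regulators, EPCAM alone was above in all 3 lines and 0 were below (background 2.68% and 2.99%). RAB13, a GTPase of junction assembly, had 31.3 FPKM in HCT116, 38.7 FPKM in DLD-1 and 23.2 FPKM in SW620, against 142 FPKM in HCEC-1CT. It stood 4-fold or more below HCEC-1CT in HCT116 and SW620 but not in DLD-1. ARHGEF2, a nucleotide exchange factor held at junctions, had 20.8 FPKM in HCT116, 18.5 FPKM in DLD-1 and 126 FPKM in SW620, against 103 FPKM in HCEC-1CT. YBX3, which binds ZO-1, was within 4-fold, at 64.6, 57.9 and 35.5 FPKM in HCT116, DLD-1 and SW620, against 51.5 FPKM in HCEC-1CT. AMOTL1, which is named after its values were seen, had 13.5 FPKM in HCT116 and 0.0643 in DLD-1 and was listed at 0 in SW620, against 19.0 FPKM in HCEC-1CT.

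Transcription factors known to act on epithelial junction genes are given beside these levels, and their part in them was not tested. Of 6 repressors, 3 (ZEB2, TWIST1 and TWIST2) were 4-fold lower than HCEC-1CT in all 3 cancer lines, where the share over all genes is 2.99%. ZEB2 was listed at 0 in all 3, against 54.0 FPKM in HCEC-1CT. TWIST1 had 2.57 FPKM in HCT116 and was listed at 0 in DLD-1 and SW620, against 26.4 FPKM in HCEC-1CT, and TWIST2 was at most 0.248 FPKM, against 20.5 FPKM in HCEC-1CT.

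The other 3 repressors were not 4-fold lower than HCEC-1CT in all 3 cancer lines. Of them only SNAI2, in SW620, lay 4-fold or more from both of the other cancer lines. ZEB1 had 0.878 FPKM in HCT116, 0.417 FPKM in DLD-1 and 5.98 FPKM in SW620, against 19.9 FPKM in HCEC-1CT. SNAI2, or Slug, had 0.501 FPKM in HCT116, 0.0176 FPKM in DLD-1 and 9.47 FPKM in SW620, against 16.1 FPKM in HCEC-1CT. SNAI1, or Snail, had 12.5 FPKM in HCT116, 1.89 FPKM in DLD-1 and 8.13 FPKM in SW620, against 2.24 FPKM in HCEC-1CT.

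Among 13 epithelial factors, 3 (ELF3, KLF4 and CDX2) were 4-fold above HCEC-1CT in all 3 lines and 0 below, where the shares over all genes are 2.68% and 2.99%. The grainyhead factor GRHL2 had 6.15 FPKM in HCT116 and 20.1 in DLD-1 and was listed at 0 in SW620 and HCEC-1CT. OVOL1 had 9.74 FPKM in HCT116, 21.7 FPKM in DLD-1 and 0.0227 FPKM in SW620, against 0.0112 FPKM in HCEC-1CT. GRHL3 had 3.44, 61.9 and 0.639 FPKM in HCT116, DLD-1 and SW620 and was listed at 0 in HCEC-1CT, and GRHL1 had 4.63, 12.5 and 2.62 FPKM, against 0.0310 FPKM in HCEC-1CT.

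CDX2 had 3.27 FPKM in HCT116, 70.8 FPKM in DLD-1 and 6.04 FPKM in SW620, and HNF4A 2.63, 17.5 and 24.4 FPKM, and both were listed at 0 in HCEC-1CT. ELF3 had 72.6 FPKM in HCT116, 305 FPKM in DLD-1 and 229.9 FPKM in SW620, against 2.13 FPKM in HCEC-1CT, and KLF4 had 27.5, 53.7 and 17.4 FPKM, against 1.32 FPKM in HCEC-1CT. EHF had 3.51 FPKM in HCT116, 75.4 FPKM in DLD-1 and 184 FPKM in SW620, against 7.14 FPKM in HCEC-1CT, and KLF5 had 49.2, 67.7 and 227 FPKM, against 21.4 FPKM in HCEC-1CT.

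**Figure D5:**
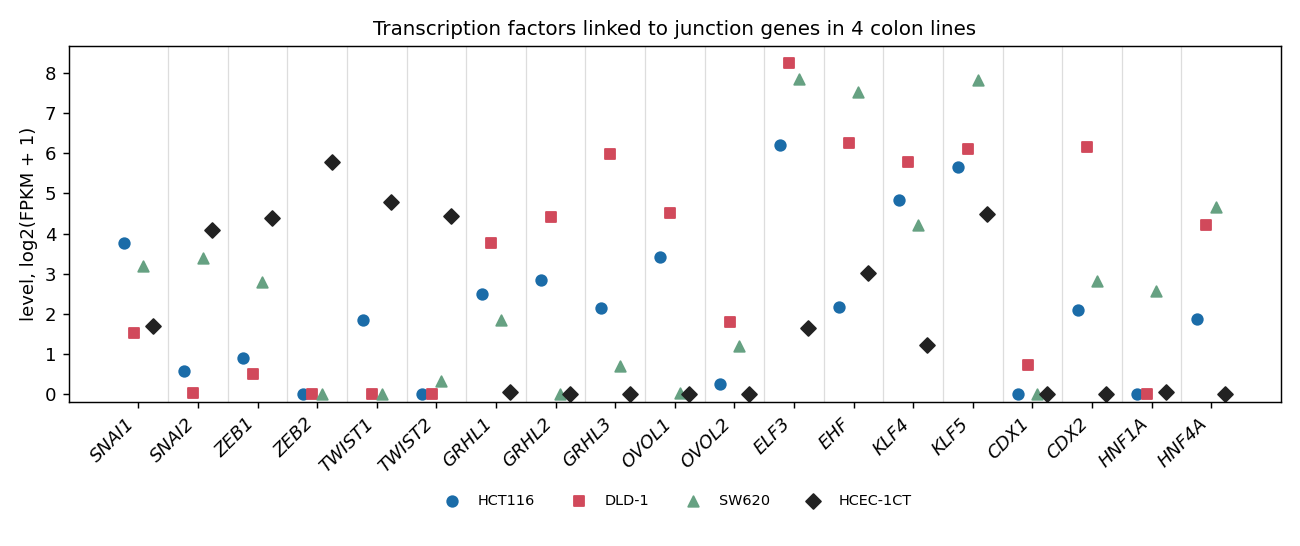
Level of 19 transcription factors as log2(FPKM + 1), with 1 point per line (circles HCT116, squares DLD-1, triangles SW620, diamonds HCEC-1CT). The repressors at the left are highest in HCEC-1CT except SNAI1, and GRHL2 and OVOL1 are at or near 0 in both SW620 and HCEC-1CT.

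The likeness of patterns was measured as the Euclidean distance between log2(FPKM + 1) profiles over the 4 libraries, each centred on its own mean, among 13763 protein-coding genes. With 4 points this is a description only. Within the 10 genes, apart from pairs with the near-silent CLDN2, the closest pairs were CLDN3 and TJP3 at 0.89, CLDN3 and CLDN7 at 1.19, and CLDN3 and OCLN at 1.24. CLDN1 and CLDN11 lay 2.15 apart. Nearest to CLDN3 in the whole table were CDC20 at 0.24 and TK1 and ENDOD1 at 0.36 each, and nearest to CLDN7 were ABLIM1 at 0.51, PLEKHG6 at 0.65 and MYH14 at 0.73.

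CLDN4 was nearest to MEGF6 at 1.00, DSC2 at 1.28 and HIST1H2AJ at 1.41. For OCLN the nearest were CDCA7 at 0.04 and JAG2 and AURKA at 0.16 each, and for TJP3 PLPP2 at 0.38, DMTN at 0.46 and the polarity gene CRB3 at 0.55. CLDN1 was nearest to ABHD2 at 0.78, TMEM176A at 0.84 and COLGALT2 at 0.95, and CLDN11 to SERPINF1 at 0.41, HIST1H3C at 0.73 and ECM1 at 0.94. TJP1, with its flat profile, was nearest to CCDC71 at 0.04 and to ATPAF2 and ADCY3 at 0.06 each, and CLDN12 to PRKG2 at 0.07 and to ZFX and STK10 at 0.11 each.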

How the data were processed

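RNA was measured in spheroids of 4 human colon cell lines, 1 library each. The values are FPKM per gene and per transcript, as deposited by the authors, on hg38. FastQC and HISAT2 are named, with no version, per the submitters' processing notes. Not given in the sources used here are the program behind the FPKM values, its filters and any strand setting. Both tables hold 1 further value column that matches no sample; it was not used. Of 58740 gene IDs, 58275 matched GENCODE 29, 96.6% of them with the same coordinates, and transcript types and lengths come from there.

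Ratios are of FPKM plus a pseudocount of 1, as deposited, without rescaling, computed with Python 3.11.15 and pandas 2.3.3. Calls needed a 4-fold ratio and a higher value of 1 FPKM or above. There is no test, since each line has 1 library. Depth was read from genes with 1 transcript, where FPKM times length peaks at whole multiples of a step (tolerance 0.01): 185 to 199 values lay at 2 steps and 6 to 11 at 2.25 steps per library. Fragments per gene were estimated from that step and transcript lengths, and cover counting error only.

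The genes and lists were chosen with earlier results of these data known. Named were all 10 genes, other claudins at 1 FPKM or more, per role group the 4 highest genes and any called in all 3 lines, factors at 5 FPKM or more, and the 3 nearest patterns per gene; exceptions are marked. Some genes of these lists are counted but not reported here by name or in the plots. Alternatives were other pseudocounts, scalings, fold limits and minimum FPKM, and coding transcripts only.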

Additional observations from a re-analysis of the deposited data

Results flagged for a closer look

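CLDN11 stood out because it was 4-fold above HCEC-1CT in SW620 and below it in HCT116 and DLD-1, though neither was past the 4-fold limit with a pseudocount of 5 (log2 ratios of -0.95 and -0.96) or with a minimum of 5 FPKM. It had 0.0512 FPKM in HCT116, was listed at 0 in DLD-1 and had 37.7 FPKM in SW620, against 4.76 FPKM in HCEC-1CT. The difference was not tested, since each line has 1 library.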

How the results depend on the processing

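With 1 library per line, neither leaving out a replicate nor a paired fit applies. No paired analysis was possible because no result comes from a test. CLDN3, CLDN4, CLDN7, OCLN and TJP3 stood above HCEC-1CT in all 3 cancer lines under 7 of the 8 alternatives; with a pseudocount of 5 only 1 of them, TJP3, did. That pseudocount also gave 3 genes above in SW620 in place of 7, and 0 below in HCT116 and in DLD-1 in place of 1 each, and of the list of 45 it left 4 above and 0 below in all 3 lines in place of 11 and 3. Asking for 5 FPKM in the higher library likewise gave 0 below in HCT116 and in DLD-1, since the HCEC-1CT level of CLDN11 is 4.76 FPKM. Below HCEC-1CT in HCT116, and below DLD-1 in HCT116, there were 2 genes each with a pseudocount of 0.1 and on the TPM scale, where CLDN1 joined. At 2-fold there were 2 below HCEC-1CT and 3 below DLD-1 in HCT116, 3 above SW620 in HCT116 and 4 above SW620 in DLD-1. Of the 45, 5 were below in all 3 lines with median-ratio scaling and 5 at 2-fold. Median-ratio scaling moved the median of all genes to 0.03, 0.05 and 0.03 in HCT116, DLD-1 and SW620, and no ratio of the 10 genes that was called changed sign in any setting.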
